A study of Mus musculus with 16 samples.

Results

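The 10 genes described here are those of interferon reception, JAK-STAT signalling and the interferon response. They are Ifngr1, Ifngr2, Jak1, Jak2, Stat3, Irf1, Ifitm1, Ifitm2, Ifitm3 and Bst2. They were chosen from 2 deposited tables by gene name, with their values in those tables already known, so their changes are given as a description and no test of them was made. All 10 were in the table for CD11c-low cells and 1, Jak1, was also in that for CD11c-high cells, out of 1413 different genes in the 2 tables together.

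The study sorted duodenal lamina propria eosinophils of mice at zeitgeber time 15 (ZT15, where ZT counts hours from lights on) and at ZT3, and measured their polyadenylated RNA. There were 4 groups of 4 libraries each, namely CD11c-high cells at ZT15, CD11c-high cells at ZT3, CD11c-low cells at ZT15 and CD11c-low cells at ZT3. CD11c is an integrin alpha chain, the product of Itgax. Each library was made from 1000 sorted cells. The labels name no genotype, strain, age or sex, and do not say whether libraries of a group came from separate mice. The errors given here are uncertainties of the estimated changes and not a spread between libraries, and the variation between libraries behind them may be technical. Because each library pools sorted cells, fewer cells expressing a gene and less RNA of it per cell cannot be told apart.

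Interferon gamma binds a receptor of an Ifngr1 and an Ifngr2 chain, which carry the kinases Jak1 and Jak2. The activated kinases phosphorylate STAT proteins, and these bind gamma-activated sites near target genes such as Irf1. Type I interferons act through another receptor, Tyk2 and Jak1, and the complex they activate binds interferon-stimulated response elements. Eosinophils of the mouse intestine are known to respond to interferon gamma.

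The promoters of the interferon-induced members are shown first, because their letters differ within the family. All 10 genes were matched by symbol in RefSeq's promoter table (build GRCm38.p6), in which each window spans 250 bases before a gene's start and 50 from it on. Irf1 has 2 windows and the other genes 1 each. Positions are counted from 1 at the start, with -1 just before it. Searched on both strands were a response element core, GAAANNGAAA, and a gamma-activated site, TTCNNNGAA, where N is any base and the second motif reads the same on either strand. Capitals mark matches, and the stretches run 5′ to 3′ along the gene's own strand.
Bst2, positions -150 to -1, chr8:71537473-71537622, minus strand: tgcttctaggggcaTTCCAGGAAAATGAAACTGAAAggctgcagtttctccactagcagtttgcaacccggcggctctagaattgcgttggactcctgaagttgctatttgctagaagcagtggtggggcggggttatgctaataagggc
Ifitm3, positions 3 to 31, chr7:141010714-141010742, minus strand, capitals for the response element core alone: GAAAAGGAAActtctgaGAAACCGAAAct
Ifitm2, positions -150 to -1, chr7:140955962-140956111, minus strand: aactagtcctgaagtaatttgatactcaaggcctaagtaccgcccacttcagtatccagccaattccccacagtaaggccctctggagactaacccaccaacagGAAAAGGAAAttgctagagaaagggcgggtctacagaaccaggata
Ifitm1, positions -150 to -1, chr7:140967926-140968075, plus strand: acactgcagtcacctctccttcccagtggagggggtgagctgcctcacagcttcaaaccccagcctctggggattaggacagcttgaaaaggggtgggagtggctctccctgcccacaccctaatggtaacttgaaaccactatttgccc
Irf1, positions -150 to -1 of its first window, chr11:53769864-53770013, plus strand: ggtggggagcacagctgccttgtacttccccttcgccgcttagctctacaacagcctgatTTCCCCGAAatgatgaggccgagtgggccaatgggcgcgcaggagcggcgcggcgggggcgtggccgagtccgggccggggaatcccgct
Ifngr1, positions -150 to -1, chr10:19591799-19591948, plus strand: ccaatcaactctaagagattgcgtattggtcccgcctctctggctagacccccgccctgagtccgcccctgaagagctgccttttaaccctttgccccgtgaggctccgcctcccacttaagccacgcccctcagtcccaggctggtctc

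The response element core occurred in the windows of 3 of the 10 genes, Bst2, Ifitm2 and Ifitm3, against 3.99% of all 27025 genes in the table. Bst2 held 2 overlapping matches, at -130 to -121 and at -124 to -115. Ifitm3 also held 2, at 3 to 12 and at 20 to 29, just inside the transcript, and Ifitm2 held 1 at -46 to -37. With the longer form that has CT after the core, 2 of the 10 genes matched, Bst2 and Ifitm3, against 0.303% of all genes. The gamma-activated site was in the windows of Bst2 (-136 to -128), Ifitm3 (14 to 22) and Irf1 (-90 to -82), against 9.55% of all genes. In Bst2 and Ifitm3 it overlapped a response element core, by the letters printed above. With 4 bases between TTC and GAA in place of 3, only the window of Ifngr2 matched among the 10 genes, at -91 to -82. Of all genes, 8.01% held that form. Neither of the 2 motifs first searched was found in the windows of Ifngr1, Ifngr2, Jak1, Jak2, Stat3 and Ifitm1. That says only that these letters are not in those bases. A match is a description of the sequence and not evidence of binding.

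**Figure D1:**
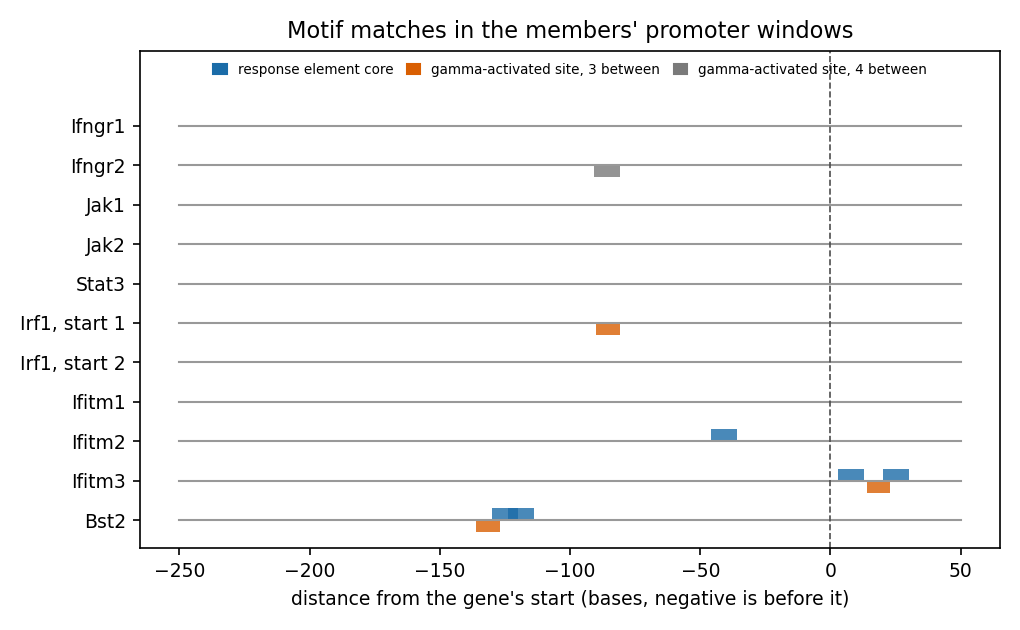
Each line is 1 promoter window of a gene from 250 bases before its start to 50 after, with bases from the start on the horizontal axis. Blue marks stand for the response element core, orange for the gamma-activated site with 3 bases between TTC and GAA and grey for that with 4. The matches of Bst2 lie between -136 and -115 and those of Ifitm3 between 3 and 29.

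In CD11c-low eosinophils, 9 of the 10 genes were higher at ZT15 than at ZT3 and 1, Ifngr2, was lower. Ifngr1 changed the most, 1.78-fold, and the other 8 that rose lay between 1.18-fold (Ifitm2 and Jak1) and 1.49-fold (Bst2) in the authors' deposited table. That table lists only genes the authors called, at an s-value under 0.05, and of its 1340 genes 52.2% were higher at ZT15 and 47.8% lower. The s-value of a gene says what share of directions would be wrong, on average, if the list ended at that gene. Because the genes were chosen from the list itself, their count of 9 higher is not a result about them. All changes below are the authors' shrunken log2 fold changes, ZT15 over ZT3, with ± their posterior standard deviation. The tables hold no column for a single library, so the values of the libraries and whether the groups overlap were not analysed here.

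The 2 chains of the interferon gamma receptor moved in opposite directions. Ifngr1 (ENSMUSG00000020009.14), the chain that binds the ligand, rose by 0.83 ± 0.15 in the authors' deposited table (CD11c-low, s-value 4.60e-09, mean normalised count 1079). It had the 14th smallest s-value of all 1340 genes and, immunoglobulin segments left out, the 11th largest increase of 692. Ifngr2 (ENSMUSG00000022965.9), the chain that transmits the signal, fell by 0.39 ± 0.23 in the authors' deposited table (s-value 0.0132, mean normalised count 248). Their log2 fold changes therefore differ by 1.22, which is a 2.34-fold shift of Ifngr1 relative to Ifngr2 between the times, with no error given because the estimates share libraries. Ifngr2 lay close to the median decrease of the table, -0.39 over the 634 genes listed as lower with immunoglobulin segments left out. Per kilobase of each gene's longest coding transcript, the mean level of Ifngr1 over all libraries of the table was 511 normalised counts and that of Ifngr2 was 66.8.

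Both kinases of the receptor were higher at ZT15 in CD11c-low cells, as was Stat3. Jak2 (ENSMUSG00000024789.14), the kinase that sits on Ifngr2, rose by 0.52 ± 0.23 in the authors' deposited table (s-value 0.00222, mean normalised count 214). Jak1 (ENSMUSG00000028530.15), the kinase shared by interferon and many interleukin receptors, rose by 0.24 ± 0.18 in the authors' deposited table (s-value 0.0303, mean normalised count 1401). It is the most abundant of the 10 genes by count and the one nearest the threshold of the list. Stat3 (ENSMUSG00000004040.17), the transcription factor downstream of interleukin-6 and interleukin-10 family receptors, rose by 0.34 ± 0.17 in the authors' deposited table (s-value 0.00608, mean normalised count 728). The change of Jak2 was 2.25 times its standard deviation, that of Stat3 2.01 times and that of Jak1 1.37 times.

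**Figure D2:**
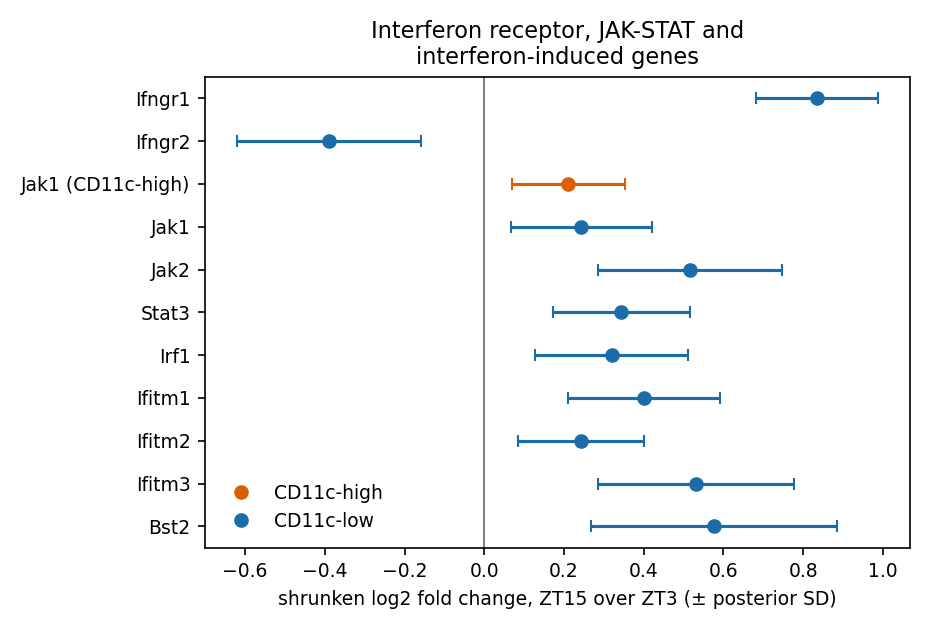
Points are the authors' shrunken log2 fold changes (ZT15 over ZT3) and bars are ± 1 posterior standard deviation, with CD11c-high in orange and CD11c-low in blue. Ifngr1 at 0.83 stands farthest to the right, Ifngr2 at -0.39 is the gene left of 0, and the bars of no gene reach 0.

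Among the interferon-induced genes of the 10, Bst2 and Ifitm3 had the largest estimated increases. The ranges of ± 1 standard deviation of Bst2, Irf1 and the Ifitm genes all overlap, so the order is not resolved. Bst2 (ENSMUSG00000046718.9) encodes tetherin, a surface protein that holds budding virus particles at the cell, and it rose by 0.58 ± 0.31 in the authors' deposited table (CD11c-low, s-value 0.00696). Its mean normalised count of 134 was the lowest of the 10 genes, and its standard deviation the largest. Irf1 (ENSMUSG00000018899.18), a transcription factor gene that interferon gamma induces, rose by 0.32 ± 0.19 in the authors' deposited table (s-value 0.0149, mean normalised count 584).

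The Ifitm genes encode small membrane proteins that block the fusion of viruses with the cell. Ifitm3 (ENSMUSG00000025492.7) rose by 0.53 ± 0.25 in the authors' deposited table (CD11c-low, s-value 0.00304, mean normalised count 220). For Ifitm1 (ENSMUSG00000025491.15) the increase was 0.40 ± 0.19 in the authors' deposited table (s-value 0.00393, mean normalised count 936). Ifitm2 (ENSMUSG00000060591.10) rose by 0.24 ± 0.16 in the authors' deposited table (s-value 0.0212, mean normalised count 785). The ranges of ± 1 standard deviation of the 3 changes overlap, so their order is not resolved. Per kilobase of the longest coding transcript, the mean levels over the table's libraries were 1199 normalised counts for Ifitm2, 1062 for Ifitm1 and 324 for Ifitm3.

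The 3 Ifitm genes stand close together on chromosome 7, in the order Ifitm5, Ifitm2, Ifitm1, a pseudogene, a long non-coding RNA gene, Ifitm3 and Ifitm6 in RefSeq's annotation, and no other Ifitm gene was in either table. Their coding sequences, taken from 1 GENCODE M21 transcript each, were 82.1% identical between Ifitm1 and Ifitm2, 84.0% between Ifitm1 and Ifitm3 and 84.3% between Ifitm2 and Ifitm3 over aligned bases. The longest stretch shared letter for letter was 40 bases between the transcripts of Ifitm1 and Ifitm2, 64 between those of Ifitm1 and Ifitm3 and 69 between those of Ifitm2 and Ifitm3. The counting of reads that match several copies is not described in the labels or headers, so the split of counts among the 3 genes is uncertain.

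Compared with all genes listed in the same direction, the 9 genes that rose had a median log2 fold change of 0.40, against 0.35 for the 692 listed as higher with immunoglobulin segments left out. Their median posterior standard deviation was 0.19, against 0.21 for those 692 genes. Their median mean normalised count was 728, against 384. On the scale of mean normalised counts per kilobase, levels of the 10 genes ran from Ifitm2 and Ifitm1 down through Ifngr1 (511), Ifitm3 (324), Jak1 (285), Irf1 (273), Bst2 (170), Stat3 (121) and Ifngr2 (66.8) to Jak2 (42.5). Differences between neighbours in that order have no error, since no library's value is in the tables. With the median in place of the longest coding transcript, Irf1 (701) and Jak1 (526) stood above Ifngr1, Ifitm1 (1272) above Ifitm2 and Stat3 (196) above Bst2. At an s-value under 0.01, 6 of the 10 genes stayed in the list, Ifngr1, Jak2, Ifitm3, Ifitm1, Stat3 and Bst2, where 38.7% of all listed genes did. A gene's own false sign rate, recovered from the running mean that the s-value is, was under 0.05 for 8 of the 10 genes and for 52.7% of all listed genes. It was 0.0803 for Jak1 and 0.0583 for Ifitm2. The genes were chosen from this list with their values known, so these counts and medians are not a result about them.

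**Figure D3:**
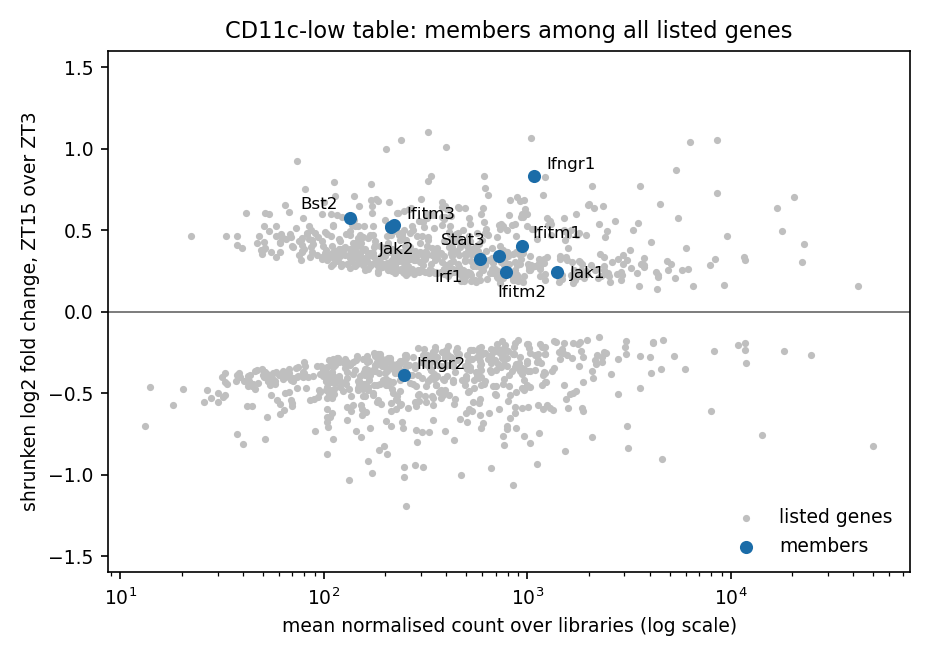
Each point is a gene of the CD11c-low table, with the mean normalised count on a log axis and the shrunken log2 fold change (ZT15 over ZT3) on the vertical axis, and the 10 genes are in blue. The empty band around 0 is there because the table lists called genes only, and 19 genes beyond 1.6 in size, 14 of them immunoglobulin segments, lie outside the axis. Ifngr1 sits above most listed genes of its abundance, while Jak1 and Ifitm2 (0.24 each) sit among the smaller listed increases.

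In CD11c-high eosinophils Jak1 was the one gene of the 10 in the table. It rose by 0.21 ± 0.14 in the authors' deposited table (CD11c-high, s-value 0.0245, mean normalised count 1098), a fold of 1.16. Higher at ZT15 were 54.1% of the 172 genes listed there. The own false sign rate of Jak1 was 0.0502, just above 0.05, which 45.3% of those genes stayed under, and its s-value was not among the 22.1% under 0.01. The difference of the Jak1 changes, CD11c-high minus CD11c-low, was -0.03 ± 0.23 (root of the summed squared standard deviations), with a range of 1 such deviation from -0.26 to 0.19. That error treats the subsets as independent, although the titles number the libraries 1 to 4 in every group and do not say whether a number marks the same mice. Each table was shrunken by itself. With each change divided by the median size of change of the 97 genes that both tables list, immunoglobulin segments left out, the difference was 0.29, so its sign depends on the scaling and no difference between the subsets is read from it. Of the 1340 genes listed in CD11c-low cells 7.39% were also listed in CD11c-high cells, against 1 of these 10.

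The other 9 genes were not in the CD11c-high table. They were either not called there or not tested, so their levels in CD11c-high cells were not analysed here, and nothing shows that their change differs between the subsets. Over the range of mean normalised counts of the 10 genes in CD11c-low cells, 134 to 1401, the CD11c-high table listed 121 genes other than immunoglobulin segments, with changes from 0.16 in size upwards and a median size of 0.26. The CD11c-low table listed 886 such genes over the same range, from 0.17 in size upwards with a median of 0.36. The tables were shrunken separately, so these sizes are given side by side and not compared.

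The lists that follow hold other genes of the pathway. How many genes were tested is not in the tables, so the share of all tested genes that was listed is unknown, and directions can only be set beside the 52.2% of all listed CD11c-low genes that were higher and the 47.8% that were lower. Of further receptors that signal through JAK kinases, 3 of 30 were listed in CD11c-low cells, 2 higher and 1 lower, too few to set against those shares. Il10rb, a chain of the interleukin-10 and interferon lambda receptors, rose by 0.33 ± 0.15 and Csf2rb, the shared chain of the receptors for interleukin-5, interleukin-3 and GM-CSF, by 0.33 ± 0.16 in the authors' deposited table. Crlf2, a chain of the receptor for thymic stromal lymphopoietin, fell by 0.42 ± 0.26 in the authors' deposited table. Il10rb and Ifngr2 lie in one cluster of receptor genes on chromosome 16, with Ifnar1 between them and Ifnar2 beyond Il10rb in RefSeq's annotation, and of these 4 genes Il10rb was listed as higher, Ifngr2 as lower and the type I receptor genes Ifnar1 and Ifnar2 were not listed. The kinase genes Tyk2 and Jak3 were not listed in either table, and their levels were not analysed here.

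Of 25 inhibitors and cofactors of JAK-STAT signalling, 4 were listed as higher and 1 as lower in CD11c-low cells, where 52.2% of all listed genes were higher. Nmi, a protein that binds STAT factors, rose by 0.61 ± 0.25 in the authors' deposited table. Ptpn1, a phosphatase that acts on Jak2 and Tyk2, was in both tables, at 0.24 ± 0.17 in the authors' deposited table (CD11c-high) and at 0.56 ± 0.17 in that for CD11c-low. Ptprc, the phosphatase CD45, rose by 0.26 ± 0.13 and Socs2, a suppressor of cytokine signalling, by 0.29 ± 0.20 in the authors' deposited table (CD11c-low). Crebbp, an acetyltransferase that STAT factors recruit, fell there by 0.23 ± 0.18, per the authors' deposited table. Of 11 further genes of the interferon regulatory factor family and its binding proteins, 2 were listed in CD11c-low cells and both fell. They were Irf2, which competes with Irf1 for its sites, at -0.57 ± 0.26 and Irf2bp2, a corepressor that binds Irf2, at -0.42 ± 0.22 in the authors' deposited table. These 2 genes are too few to set against the 47.8% lower among all listed CD11c-low genes.

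Among 103 further genes known to be induced by interferons, 13 were listed in CD11c-low cells, 10 higher and 3 lower, beside 52.2% higher among all listed genes. These 13, higher and lower ones included, had a median log2 fold change of 0.34, beside 0.21 over all 1340 listed genes. Because the table lists called genes only, both medians depend on the share of higher genes and do not compare sizes of change. The 692 genes listed as higher, immunoglobulin segments left out, had a median of 0.35. None of the 103 was listed in CD11c-high cells. Ly6e, a surface protein that restricts some viruses, rose by 0.35 ± 0.15 and Samhd1, which degrades nucleotides, by 0.23 ± 0.13 in the authors' deposited table. Sp100, a nuclear body protein, rose by 0.37 ± 0.22 and Cd274, which encodes PD-L1 and lies near Jak2 on chromosome 19 with 4 annotated genes between them, by 0.34 ± 0.21, both in the authors' deposited table. The genes that fell were Apobec3, a cytidine deaminase that restricts retroviruses (-0.49 ± 0.25), the peptide transporter subunit gene Tap2 (-0.25 ± 0.18) and the peptide loading factor gene Tapbp (-0.20 ± 0.17), all in the authors' deposited table. Of 21 genes known as STAT3 targets, 3 were listed in CD11c-low cells, too few to set against the shares of all listed genes. Fos, which many other signals also induce, rose by 0.77 ± 0.14, while the kinase gene Pim1 fell by 0.38 ± 0.17 and the NF-kB cofactor gene Bcl3 by 0.44 ± 0.32, all in the authors' deposited table. In CD11c-high cells Fos rose by 0.41 ± 0.18 and Fgl2, a fibrinogen-like protein gene, fell by 0.22 ± 0.14 in the authors' deposited table.

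**Figure D4:**
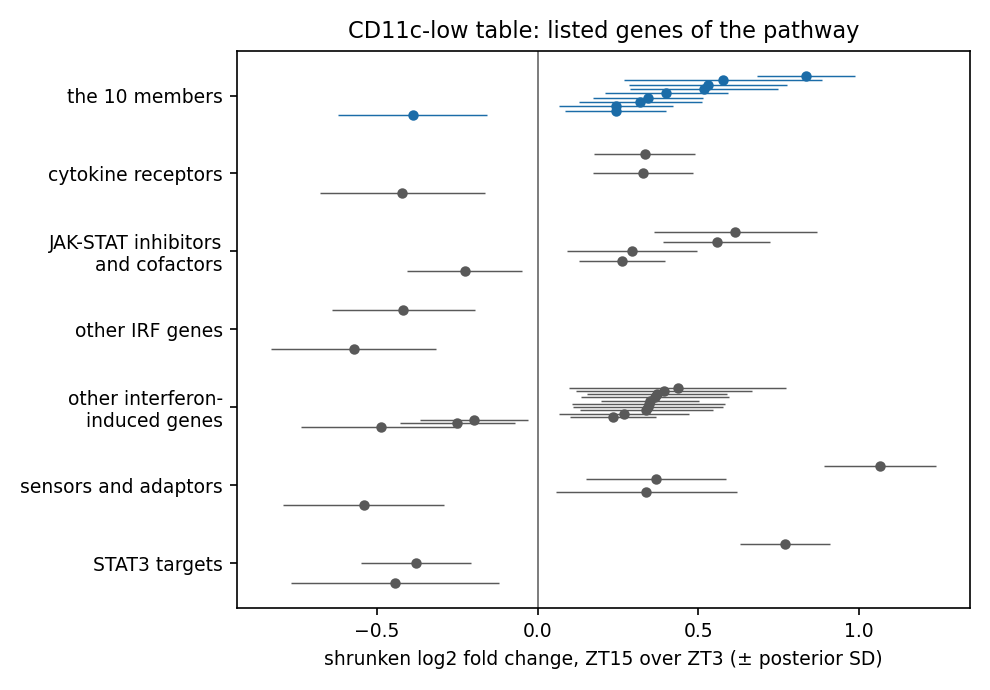
Points are listed genes of the CD11c-low table by list, with the shrunken log2 fold change (ZT15 over ZT3) on the horizontal axis and bars for ± 1 posterior standard deviation. The 10 genes are in blue on top. Of the other interferon-induced genes 10 lie right of 0 and 3 left. Irf2 and Irf2bp2, which binds Irf2, lie left of 0, and Irf1, among the 10 genes on top, lies right of it. These are too few genes to read a pattern from.

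Of 18 eosinophil markers, 7 were listed in CD11c-low cells, with mean normalised counts from 1227 to 4887. A listed gene is one called as changed between the times, so these lists of markers cannot check the cell type. At ZT15, 5 of the 7 were higher (Cd300lf, Clec4a4, Csf2rb, Alox15 and Siglecf), beside 52.2% of all listed CD11c-low genes. Adgre1 and Adgre4 were lower. None of the 18 was listed in CD11c-high cells. Of markers of other cells, 2 of 14 for B and plasma cells were listed in CD11c-low cells, Bank1 and Ighm, both higher. Their mean normalised counts were 1145 for Bank1 and 522 for Ighm. Also listed there were 1 of 11 for T and NK cells (Gzma, higher) and 1 of 8 for epithelium (Krt18, lower, mean normalised count 159). Gzma, a granzyme gene named here after its values were seen, had 30.4 mean normalised counts and a fitted log2 fold change of 20.99 ± 3.33 in the authors' deposited table (CD11c-low), a size from which no fold is read. None of 10 for macrophages and dendritic cells, 5 for neutrophils and 5 for mast cells was listed. In addition, 14 immunoglobulin segments were listed in CD11c-low cells and 9 in CD11c-high cells. Markers that are not listed have no value in the tables, so which of them were at 0 is unknown. Their part in the changes of the 10 genes was not tested.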

How the data were processed

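RNA of sorted duodenal eosinophils was measured in 16 libraries, grouped by their titles. Only the authors' PM-against-AM comparison tables, 1 per CD11c subset, were used, and they hold no column of a single library, so depth per library is unknown and no counting interval is given. Per the submitters' processing notes, the tools were STAR 2.7.10b and DESeq2 1.38.3 and the build GRCm39, with no step assigned to any of them. Mean normalised counts are a signal: per the file headers, the authors scaled counts by size factors and averaged them over libraries. Deposited log2 fold changes are shrunken values, since s-values come only from shrunken estimates. Their standard deviation is a score the authors deposited on the log2 scale. The s-value, deposited in place of a p-value or q-value, is under 0.05 for every listed gene. The direction (ZT15 over ZT3) follows the tables' names, and no clock gene is listed whose phase could check it.

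The members and lists were chosen with earlier results of these data known. Named were all members and, per list, subset and direction, up to 4 genes with the smallest s-values. Of the eosinophil markers, all listed ones were named. Computed here, with Python 3.11.15, pandas 2.3.3 and Biopython 1.88, were counts, ranks, each gene's own false sign rate, levels per kilobase (GENCODE M21), motif matches and coding sequence identity. The planned protein alignment was replaced by one of coding sequences. The recovery of false sign rates and the motif search were tested on simulated data. Coordinates are those of RefSeq's GRCm38.p6, another build than that in the processing notes.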

Additional observations from a re-analysis of the deposited data

How the results depend on the processing

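Requiring 50 or more mean normalised counts changed no count of the 10 genes. At an s-value under 0.01, 6 of the 9 genes listed as higher in CD11c-low cells were left, 0 of the 1 listed as lower (Ifngr2) and 0 of the 1 listed in CD11c-high cells (Jak1). At an own false sign rate under 0.05, an alternative chosen after seeing the data, 7 of the 9 higher genes and Ifngr2 were left in CD11c-low cells, and 0 in CD11c-high cells. Each loss follows from the stricter threshold itself. The share of listed CD11c-low genes that were higher at ZT15 stayed between 52.2% and 53.4% over these settings and without immunoglobulin segments. For CD11c-high it was between 52.8% and 63.2%. Divided by the median change of the 97 shared genes, the Jak1 change was 0.82 (CD11c-high) and 0.53 (CD11c-low), so the difference became 0.29, and its sign depends on that scaling. Before the start alone, 2 genes held the response element core and 2 the gamma-activated site, beside 3.46% and 8.13% of all genes. There, 1 held the gamma-activated site with 4 bases between TTC and GAA, beside 6.76% of all genes. With the median in place of the longest coding transcript, the level per kilobase in CD11c-low cells was 701 normalised counts in place of 273 for Irf1, 526 in place of 285 for Jak1 and 196 in place of 121 for Stat3. Leaving out a library was not run, since no table has a column for one. No paired analysis was possible because the titles number the libraries 1 to 4 in each group but no column of the tables holds a single library.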

Other observations

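Sensors and adaptors that act upstream of interferon production were split in CD11c-low cells, where 4 of 30 were listed, 3 higher and 1 lower at ZT15, beside 52.2% higher among all listed genes. Rnf125, a ubiquitin ligase that targets the RNA sensor RIG-I, rose by 1.07 ± 0.17, the DNA-sensing adaptor gene Sting1 by 0.34 ± 0.28 and Traf3, an adaptor of several sensor pathways, by 0.37 ± 0.22 in the authors' deposited table. Tbk1, the kinase that phosphorylates Irf3, fell by 0.54 ± 0.25 in the authors' deposited table. In CD11c-high cells Rnf125 was the one listed gene of the 30, at 0.24 ± 0.17 in the authors' deposited table, and whether its change differs between the subsets was not tested.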
